A study of Folsomia candida with 36 samples.

Results

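The first sampling of springtails on soil with imidacloprid, after 12 h, was compared with animals kept for the same 12 h on soil without it. The comparison rests on 6 of the 36 libraries of a time course, 3 of each treatment, chosen by the treatment and time in the labels. Each library was made from whole bodies of Folsomia candida, Berlin Strain, listed as wild type, a soil-living springtail (a hexapod that is not an insect) used in soil toxicology. Pools of 70 animals were added to glass jars of the natural soil LUFA2.2. The exposed soil held imidacloprid at 0.25 mg per kg dry soil, given as the concentration at which reproduction falls by 20%, and the control soil was mixed with water alone. Both were kept at 20 °C, 75% humidity and 16 h of light to 8 h of dark, and sampling went on every 12 h to 72 h. The 30 libraries of 24 to 72 h serve here to find the genes that differed later.

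Imidacloprid is a neonicotinoid insecticide. It activates nicotinic acetylcholine receptors, the ion channels through which acetylcholine excites neurons of arthropods, and because it is not broken down by acetylcholinesterase the receptor stays active. In insects, cytochrome P450 enzymes carry out much of its first oxidation. In whole animals the nervous system gives only part of the RNA, and a smaller number of cells of a type cannot be told apart from less RNA in each cell. The identifiers of the 28734 gene models are not paired with names in the table, and 0 of them were found among the 27231 genes of the RefSeq table of the species. Receptor subunits, detoxification enzymes and tissue markers could therefore not be read by name, no sequence is shown, and genes are given by identifier.

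The 3 control libraries carry the replicate numbers 2, 3 and 6 in their titles, and the 3 exposed libraries the numbers 2, 5 and 6. Total counts at 12 h ran from 20741822 (control replicate 6) to 33852877 (imidacloprid replicate 2), so 3 counts stood for 0.0897 to 0.137 CPM (counts scaled to library size) in a library, and such floors cover counting error only. Between 21205 and 23027 gene models had a count in a library, and the 10 most abundant models took 9.02% to 18.4% of its counts. The titles are irregular at this time: imidacloprid replicate 5 has no library number, and control replicate 2 and imidacloprid replicate 6 both have the library number 2. Whether any of these libraries carries a wrong label was not tested, and every difference at 12 h assumes that the labels hold. The labels do not say how replicates were made. The p-values measure the spread between libraries within groups, estimated over the 12 groups of all 36 libraries. This spread may in part be technical.

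After 12 h, no gene passed the test between exposed and control animals, and most differences were smaller than their own error. Among 19600 tested genes, edgeR's quasi-likelihood test called 0 (0%) at a Benjamini-Hochberg adjusted p under 0.05. No adjusted p was below 0.9998. At an unadjusted p under 0.05 there were 649 genes (3.31%), 455 higher and 194 lower with imidacloprid. This is fewer than the 980 that evenly spread p-values would give. DESeq2 called 13 (0.0663%), and limma-voom called 0 with and without library weights. The median log2 fold change over all tested genes was -0.00084 and the middle 50% of genes lay between -0.19 and 0.19. For 14748 genes (75.3%) the difference was smaller than its own standard error. The standard error had a median of 0.37 in log2 units.

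The upper tail of the differences was longer than the lower one. A log2 fold change over 1 was found in 1069 genes (5.45%), and one under -1 in 412 (2.1%). The 5% and 95% points were -0.68 and 1.09, and the 1% and 99% points were -1.31 and 5.09. Differences over 3 in log2 units were found for 420 genes (2.14%) on the higher side and 5 on the lower. Of these 420, 150 had no count in any control library, so their fitted size depends on the prior count and is no measure of fold. Without imidacloprid replicate 2 the lower side went from 412 to 997 genes. It became 781 without imidacloprid replicate 5 and 770 without control replicate 2.

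Differences over 2-fold were most frequent among genes of low level. Of the 3904 genes under 1 CPM at 12 h, 789 were over 2-fold higher and 194 over 2-fold lower, with a median standard error of 0.70. Of the 5984 genes of 1 to 10 CPM, 228 were over 2-fold higher and 113 lower. Among the 7673 genes of 10 to 100 CPM the counts were 48 and 82, with a median standard error of 0.27. Among the 2039 genes over 100 CPM, 4 were over 2-fold higher and 23 lower, and the median size of difference over the 2039 was 0.10. Of the 412 genes over 2-fold lower, 218 had at least 1 CPM, so the lower tail did not lie mainly under that level. In 18 of the 23 abundant genes over 2-fold lower the highest library was control replicate 6.

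Exposed and control libraries lay about as far from each other as libraries of the same treatment. The distance used is the root-mean-square difference of log2 CPM over all tested genes. The 9 pairs of unlike treatment had a mean distance of 0.930 and the 6 pairs of like treatment one of 0.926, a ratio of 1.00 (exact permutation test over 20 splits, one-sided, p = 0.5, where the smallest p possible is 0.1). The 3 control pairs lay at 0.767, 0.772 and 0.869. The 3 exposed pairs lay further apart, at 1.02, 1.06 and 1.07. Their mean of 1.05 was the highest within-group distance of the 12 groups of the series, the others running from 0.665 to 1.03.

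**Figure D1:**
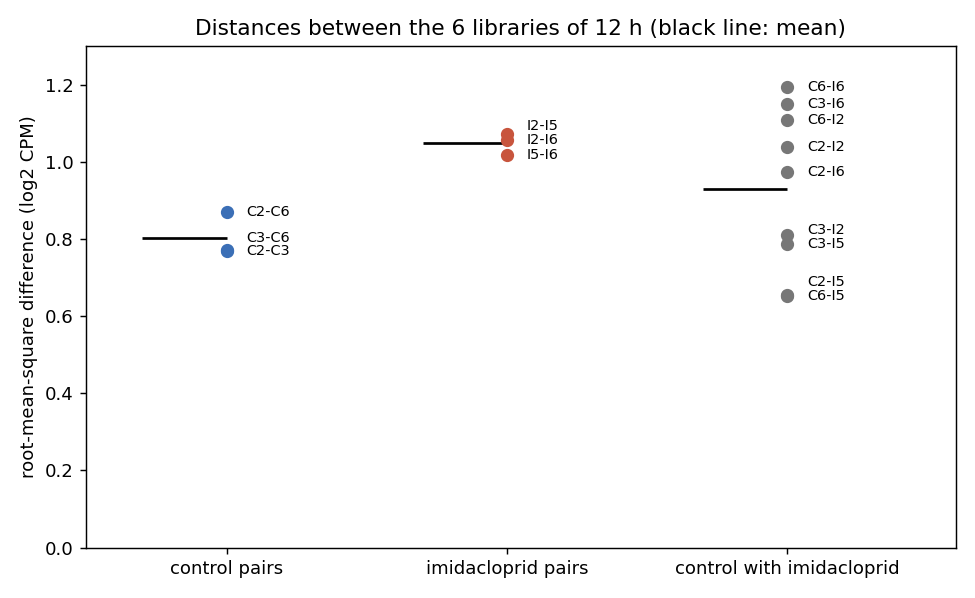
Distance between each pair of the 6 libraries of 12 h, as the root-mean-square difference of log2 CPM over 19600 genes, for control pairs, exposed pairs and pairs of unlike treatment; C and I mark control and imidacloprid and the digit is the replicate number, with a black line at each mean. The 2 smallest of all 15 distances join imidacloprid replicate 5 to control replicates 6 and 2.

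Imidacloprid replicate 5 lay as close to the controls as these lay to each other, while replicates 2 and 6 were far from each other and from most controls. The distance of replicate 5 was 0.653 to control replicate 6 and 0.656 to control replicate 2, both below all 3 distances among the controls, and 0.786 to control replicate 3. It was 1.07 and 1.02 to the other exposed libraries. Imidacloprid replicate 2 was nearest to control replicate 3, at 0.811, within the range of the control pairs, and imidacloprid replicate 6 to control replicate 2, at 0.973. Set against group means of the other 11 groups, replicate 5 was nearest to exposed animals at 36 h (0.514) and next to the controls of 12 h (0.525). Replicate 2 was nearest to exposed animals at 72 h (0.724, against 0.879 to the 12 h controls), and replicate 6 to control animals at 48 h (0.749, against 1.01). Exposed libraries also spread more gene by gene: the median standard deviation of log2 CPM was 0.48 in them and 0.38 in controls, and it was the larger of both in 64.6% of genes. This was not particular to 12 h, as that share was 70.1% at 48 h and 68.5% at 60 h, though 40.5% at 24 h.

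The same libraries set the tails of the comparison. Of the 15696 genes of at least 1 CPM, 1423 stood over 2-fold above the median of the other 5 libraries in imidacloprid replicate 2, and 322 in replicate 5 and 723 in replicate 6. Below that median stood 855 genes in replicate 2, 496 in replicate 5 and 1334 in replicate 6. The controls ran from 308 to 749 above and from 423 to 824 below, so replicate 5 lay near the lowest control on the upper side and within the controls on the lower. Of the 1069 genes over 2-fold higher, the highest library was imidacloprid replicate 6 in 663, replicate 2 in 318 and replicate 5 in 86. In 575 of them (53.8%) replicates 2 and 6 both exceeded the highest control more than 2-fold while replicate 5 did not, and in 56 (5.24%) all 3 did. Of the 412 genes over 2-fold lower, the highest library was control replicate 6 in 232 and control replicate 3 in 132, and the lowest exposed library was replicate 6 in 251.

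**Figure D2:**
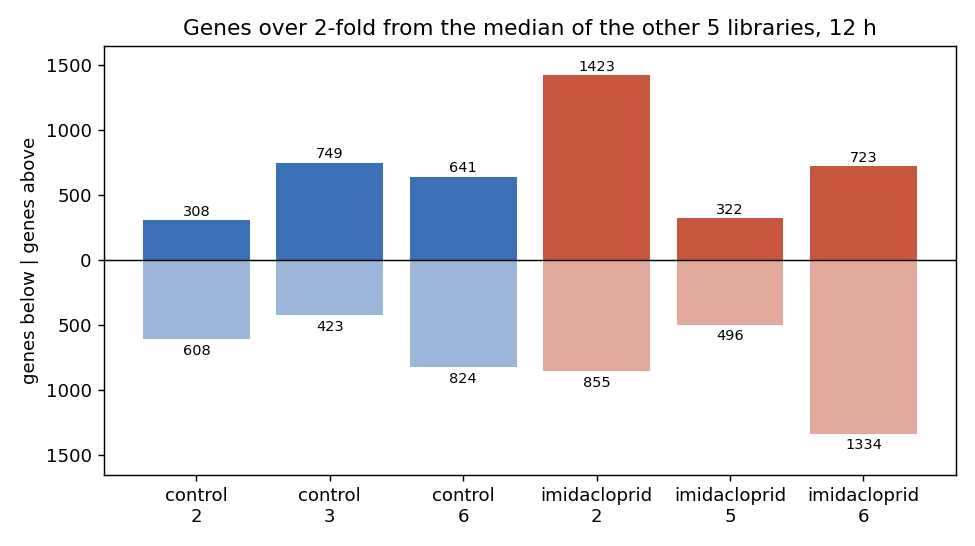
Number of genes, out of 15696 with at least 1 CPM, that stood over 2-fold above (bars up) or below (pale bars down) the median of the other 5 libraries of 12 h, for each library, in log2 CPM. Imidacloprid replicate 2 has the most genes above (1423) and replicate 6 the most below (1334), and replicate 5 (322 and 496) lies among the controls.

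Genes for which 1 library alone made the difference mark the end of this range. For Fcan01_10874, imidacloprid replicate 2 had 187 counts (6.08 CPM) and the other 5 libraries had 0. Over the group this is at least 48.6-fold higher, against a floor of 3 counts in the 3 controls together, but it rests on 1 library. For Fcan01_24975, imidacloprid replicate 2 had 363 counts (11.8 CPM), replicate 6 had 7 and control replicate 2 had 1, and the remaining 3 libraries had 0. Neither gene passed the test (edgeR adjusted p = 0.9998 for both).

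A set of 120 genes that rise and fall together was high in imidacloprid replicates 2 and 6 and low in the other 4 libraries. The set was found in the 30 later libraries alone, as the largest group of correlated genes among the 177 whose log2 CPM had a variance over 4. No 12 h value entered the choice of its members. The search itself followed earlier results of these data, in which such a set was high in 2 of the exposed 12 h libraries. The mean log2 CPM of the set at 12 h was -3.10, -2.79 and -2.82 in control replicates 2, 3 and 6. It was 1.77 in imidacloprid replicate 2, -2.94 in replicate 5 and 1.72 in replicate 6. In 118 of the 120 genes both replicates 2 and 6 exceeded the other 4 libraries, which was so for 7.74% of all tested genes. The groups did not overlap in 17 genes of the set, all higher, where 1.73% of all tested genes were higher without overlap. With replicates 2 and 6 high in 118 genes, this count depended mainly on replicate 5. That library exceeded all 3 controls in 17.9% of all tested genes. The set took 0.0716% and 0.0727% of all counts in replicates 2 and 6, and between 0.000935% and 0.00200% in the others.

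All 120 had a positive log2 fold change at 12 h, with a median of 5.44, against -0.00084 over all tested genes. In the fit of all 36 libraries edgeR called none, and 98 had an unadjusted p under 0.05, against 3.31% of all tested genes. The members were chosen for moving together, so the 98 are not separate results. High levels occurred later in both treatments. Of the later libraries 8 had a mean of the set over 1, 3 of them controls and 5 exposed, and 21 had one under -2. At 48 h 2 of the 3 controls were high and no exposed library was, so that the median log2 fold change of the set was -6.42 there, against 4.05 at 24 h, -2.83 at 36 h and 5.59 at 60 h. Another 594 genes had a correlation over 0.8 with the set in the later libraries. At 12 h, 578 of them were higher with imidacloprid, and their median log2 fold change was 2.88. The set and these genes made up 635 (59.4%) of the 1069 genes over 2-fold higher. With the mean level of the set as a covariate the 1069 became 621, and the genes over 2-fold lower went from 412 to 710. The covariate was made from the set itself, so a fall among its members followed from that choice. What the high level of the set in some pools stands for was not tested.

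Fcan01_08077 and Fcan01_26023 had the highest mean levels of the set at 12 h. Fcan01_08077 stood at 2.73, 1.65 and 3.38 CPM in control replicates 2, 3 and 6 and at 110, 2.39 and 20.1 CPM in imidacloprid replicates 2, 5 and 6. Fcan01_26023 stood at 0.136, 0.242 and 0.640 CPM in the controls and at 29.0, 0.239 and 83.3 CPM in the exposed libraries. In both genes replicate 5 lay within the range of the controls, and which of the other exposed libraries was the higher differed between them.

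**Figure D3:**
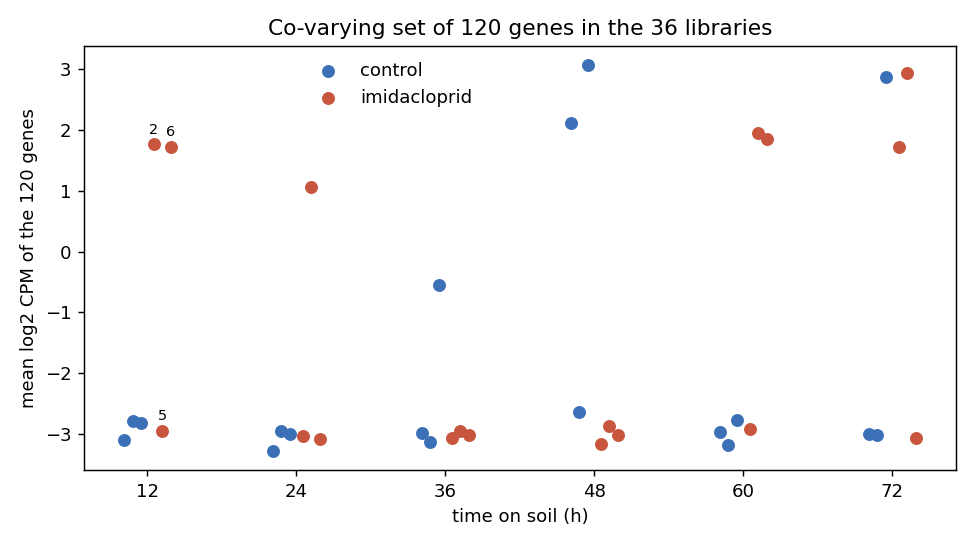
Mean log2 CPM of the 120 co-varying genes in each of the 36 libraries, by time on soil in hours, for control and imidacloprid; digits mark the replicates of the exposed group at 12 h, and points are spread sideways within a time. Imidacloprid replicates 2 and 6 stand at 1.77 and 1.72 while replicate 5 and the 3 controls lie between -3.10 and -2.79, and high libraries occur in both treatments later.

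The 13 genes called by DESeq2 at 12 h came largely from the same 2 libraries. Of these, 12 were higher with imidacloprid and had no count in any control library. In 10 of the 12, imidacloprid replicate 5 had at most 1 count, and 10 belonged to the co-varying set. The remaining 2 were of low level and were named after their values were seen: Fcan01_03326 had 29, 6 and 11 counts in imidacloprid replicates 2, 5 and 6, and Fcan01_12900 had 3, 30 and 0. The single gene called lower, Fcan01_13300, had 12, 7 and 7 counts in control replicates 2, 3 and 6 and 0 in every exposed library, at least 11.1-fold lower against 3 counts over the exposed group. In later libraries it had a count in 10 controls and in 10 exposed libraries. Of the 13 genes, edgeR gave 11 an unadjusted p under 0.05 and called 0.

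Some genes had groups that did not overlap, and these were fewer than at most later times. At 12 h every exposed library lay above every control in 339 genes (1.73%) and below in 547 (2.79%). At the later times these counts ran from 620 to 2054 above and from 519 to 2611 below. At 12 h both shares were below the 1 in 20 expected if the order of the 6 libraries were random. Of the genes of at least 1 CPM without overlap, the 2 higher and the 2 lower with the smallest p are given next, and none of the 4 passed the test (edgeR adjusted p = 0.9998 for each).

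Fcan01_20824 stood at 16.2, 13.6 and 12.0 CPM in control replicates 2, 3 and 6 and at 49.0, 26.1 and 23.4 CPM in imidacloprid replicates 2, 5 and 6. Its log2 fold change was 1.23 ± 0.33 (SE), 2.35-fold, and imidacloprid replicate 2 was the highest library by a wide margin. Fcan01_06479 stood at 9.63, 9.03 and 5.85 CPM in the controls and at 22.9, 9.99 and 23.3 CPM in the exposed libraries. Its log2 fold change was 1.19 ± 0.35 (SE), and replicate 5 lay only just above the highest control. On the lower side, Fcan01_07961 stood at 34.6, 32.4 and 31.8 CPM in the controls and at 21.7, 24.3 and 19.6 CPM in the exposed libraries. Both groups were narrow, and the log2 fold change was -0.59 ± 0.19 (SE). Fcan01_14639 stood at 1.86, 2.38 and 1.74 CPM in the controls and at 1.04, 1.11 and 0.710 CPM in the exposed libraries, a log2 fold change of -1.06 ± 0.34 (SE). In this gene too all 3 exposed libraries lay below the controls, at few counts (32, 37 and 17 in imidacloprid replicates 2, 5 and 6).

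**Figure D4:**
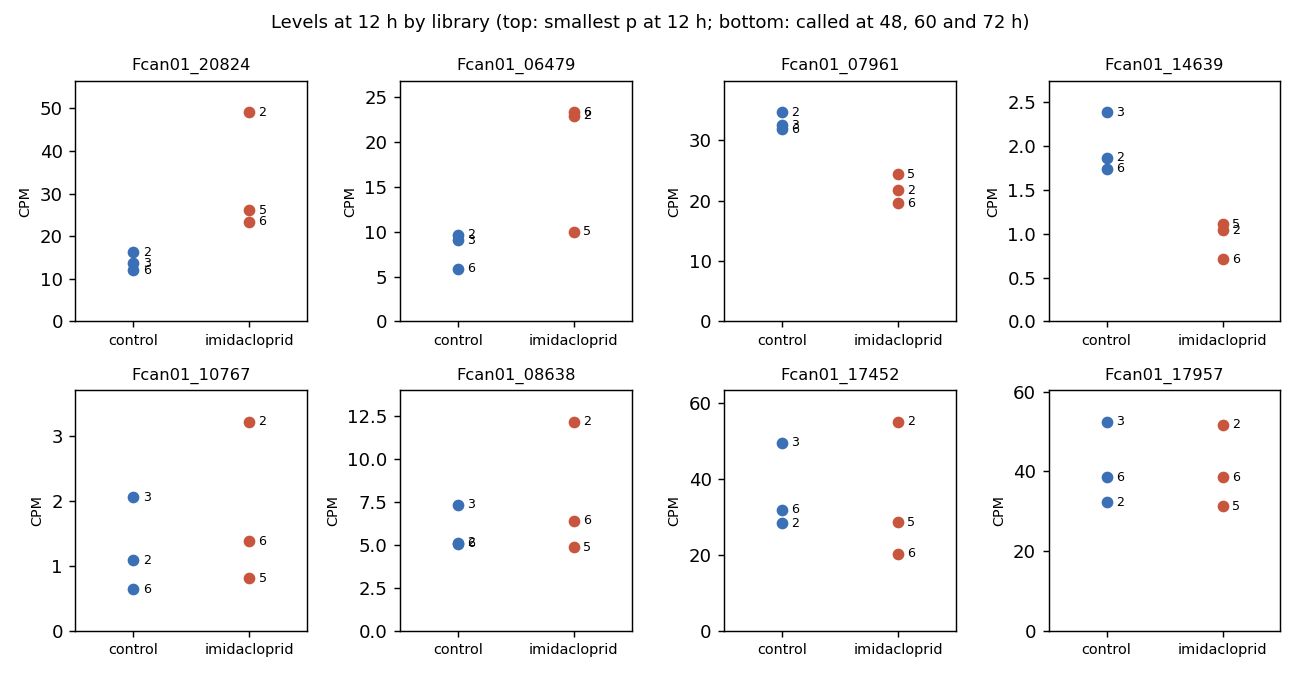
Level in CPM in each of the 6 libraries of 12 h for 8 genes, with the replicate number beside each point. The upper row holds, of genes with at least 1 CPM and no overlap of the groups, the 2 higher and the 2 lower with the smallest p, and the lower row the 4 genes called at 48, 60 and 72 h, whose groups overlap at 12 h with control replicate 3 and imidacloprid replicate 2 highest in their groups.

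Genes that differed after 12 h were found in a fit of the 30 later libraries alone, so that no value of 12 h entered the choice. The exposed libraries of 72 h with library numbers 71 and 72 carry the same replicate number, 4. They were fitted as separate libraries. In the mean effect over 24 to 72 h edgeR called 78 of 19453 genes (0.401%), 52 higher and 26 lower with imidacloprid. Another gene was called lower at 72 h alone, which made 79, and all 79 were among the genes tested at 12 h. None was called at 12 h, and 3 (3.80%) had an unadjusted p under 0.05, close to the 3.31% of all tested genes. The direction at 12 h was that found later in 53 of 79 (67.1%), where about equal shares of all tested genes were higher (49.9%) and lower (50.1%). This share rested on imidacloprid replicate 2, without which it was 36.7%. It was 54.4% with limma-voom, 41.8% with library weights, 43.0% with the co-varying set as a covariate and 49.5% for the 285 later genes of DESeq2. No member of the list belonged to the co-varying set.

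The 52 genes that were higher later had a median log2 fold change near 0 at 12 h. It was 0.03, against 1.38 in the mean of the later times, and 30 of 52 were higher. Above all 3 controls stood 35 of 52 (67.3%) in imidacloprid replicate 2, but 3 (5.77%) in replicate 5 and 7 (13.5%) in replicate 6. Of all tested genes, 30.4%, 17.9% and 26.4% stood above the controls in these libraries. Below all 3 controls stood 3, 22 and 23 of the 52. The exposed libraries therefore differed in direction, with a median difference from the control mean of 0.70 in replicate 2, -0.34 in replicate 5 and -0.41 in replicate 6 in log2 units. Control replicate 3 was the highest control for these genes, with a mean log2 CPM of 3.05, against 2.30 and 2.70 in control replicates 2 and 6. All 3 controls of 12 h lay above every later control library, which ran from 1.10 to 2.13. The genes were chosen for low levels in those later controls relative to exposed animals, so this order is a description.

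The 27 genes that were lower later, with the gene of 72 h alone among them, stood lower at 12 h in 23 (85.2%), where 50.1% of all tested genes were lower, with a median log2 fold change of -0.52 against -1.56 later. The median standard error of these genes at 12 h was 0.63. An unadjusted p under 0.05 was found for 2 (7.41%), 1 in each direction, against 3.31% of all tested genes. Below all 3 controls stood 17 of 27 (63.0%) in imidacloprid replicate 5 and 19 (70.4%) in replicate 6, but 3 (11.1%) in replicate 2. Of all tested genes, 21.7%, 31.8% and 27.9% stood below the controls in these libraries. The mean log2 CPM of the 27 was 2.06, 2.15 and 2.42 in control replicates 2, 3 and 6 and 2.43, 1.52 and 1.05 in imidacloprid replicates 2, 5 and 6. Replicate 2 thus lay at the level of the controls and the other exposed libraries below all of them. Without replicate 2 the median was -1.23, without control replicate 6 it was -0.25 and without imidacloprid replicate 6 it was -0.27. For the 147 lower genes of DESeq2 it was 0.00.

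**Figure D5:**
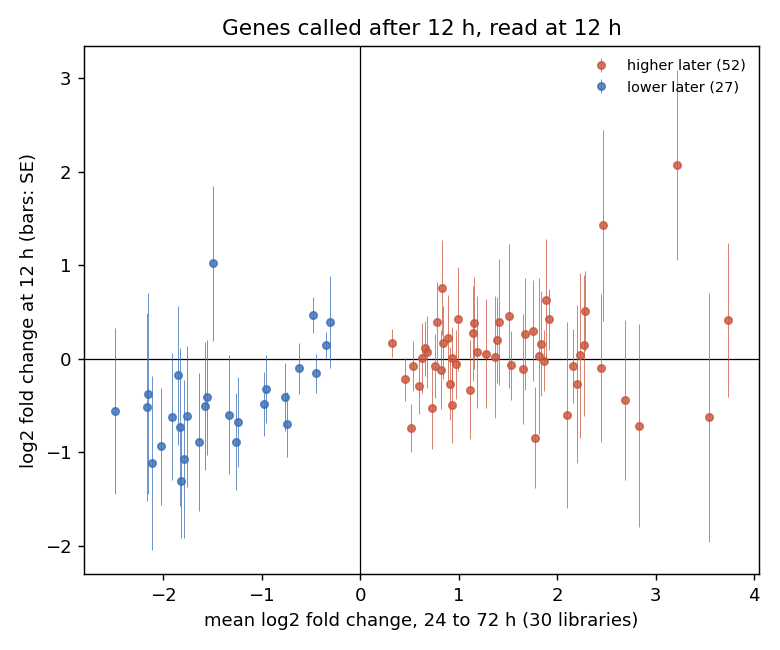
Log2 fold change at 12 h, with bars of 1 standard error, against the mean log2 fold change over 24 to 72 h, for 52 genes higher and 27 genes lower in later libraries. The later values chose the genes and the 12 h values did not; at 12 h the higher genes scatter around 0 (median 0.03) and the lower genes lie mostly below it (median -0.52).

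Called higher at 48, 60 and 72 h alike were 4 genes, and at 12 h their groups overlapped. Their log2 fold changes in the mean of the later times ran from 1.86 (Fcan01_17957) to 2.28 (Fcan01_10767). Fcan01_17957 stood at 32.3, 52.5 and 38.5 CPM in control replicates 2, 3 and 6 and at 51.8, 31.3 and 38.5 CPM in imidacloprid replicates 2, 5 and 6. Its log2 fold change was -0.02 ± 0.33 (SE). Fcan01_17452 stood at 28.4, 49.6 and 31.9 CPM in the controls and at 55.1, 28.7 and 20.4 CPM in the exposed libraries, a log2 fold change of -0.08 ± 0.40. In both genes control replicate 3 and imidacloprid replicate 2 were the highest of their groups. Fcan01_08638 stood at 5.13, 7.34 and 5.08 CPM in the controls and at 12.2, 4.88 and 6.43 CPM in the exposed libraries, a log2 fold change of 0.42 ± 0.33. Fcan01_10767 stood at 1.09, 2.06 and 0.640 CPM in the controls and at 3.22, 0.808 and 1.38 CPM in the exposed libraries, a log2 fold change of 0.51 ± 0.43. Here imidacloprid replicate 2 lay above all controls, and without it the log2 fold changes of Fcan01_08638 and Fcan01_10767 were -0.02 and -0.20.

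Of the lower genes with at least 1 CPM at 12 h, those with the smallest adjusted p later were Fcan01_20402 and Fcan01_07162. Fcan01_20402 stood at 1.54, 2.14 and 2.29 CPM in the controls and at 1.69, 0.987 and 0.418 CPM in the exposed libraries at 12 h, a log2 fold change of -0.94 ± 0.63 (SE), against -2.02 ± 0.30 in the later mean. Fcan01_07162 stood at 29.2, 33.3 and 62.1 CPM in the controls and at 37.3, 30.2 and 21.3 CPM in the exposed libraries, -0.49 ± 0.34 at 12 h and -0.98 ± 0.15 later. In both, imidacloprid replicate 6 was the lowest library. Fcan01_17166, called at 72 h alone and lower there, stood at 5.73, 2.54 and 2.97 CPM in the controls and at 1.33, 7.15 and 6.22 CPM in the exposed libraries. These values cross the whole range in the exposed group.

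The groups of 12 h did not overlap in 5 of the 79 genes (4.52% of all tested genes in either direction), 3 in the later direction and 2 in the opposite one, and all are given though chosen after their values were seen. Fcan01_01222, lower later, was at 0.318, 0.766 and 0.777 CPM in the controls and at 0.293, 0.239 and 0.209 CPM in the exposed libraries. Fcan01_17244, higher later, was at 0.0909, 0.121 and 0 CPM in the controls and at 0.488, 0.329 and 0.125 CPM in the exposed libraries, levels near the floor. Fcan01_20295, higher later, was at 4.18, 4.23 and 4.39 CPM in the controls and at 6.76, 4.70 and 5.22 CPM in the exposed libraries. In the opposite direction, Fcan01_01320, higher later, was at 12.1, 18.8 and 12.9 CPM in the controls and at 11.5, 6.91 and 5.97 CPM in the exposed libraries. Fcan01_15105, lower later, was at 14.3, 13.3 and 12.5 CPM in the controls and at 18.1, 19.1 and 18.2 CPM in the exposed libraries, with narrow groups. None of the 5 passed the test at 12 h (edgeR adjusted p = 0.9998 for each).

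Whether the effect of imidacloprid at 12 h differed from its mean over 24 to 72 h was tested for each gene. EdgeR called 0 of 19600 genes (0%), and 647 (3.3%) had an unadjusted p under 0.05. The smallest adjusted p was 0.276. DESeq2 called 20 (0.102%), limma-voom 0, and limma-voom with library weights 2. Of genes with at least 1 CPM, Fcan01_17957 and Fcan01_17452 had the smallest p on the side of lower values at 12 h, with differences of -1.88 ± 0.37 (SE) and -2.23 ± 0.45 in log2 units (edgeR adjusted p = 0.276 for both). On the side of higher values stood Fcan01_15105, at 0.95 ± 0.21 (edgeR adjusted p = 0.491), and Fcan01_20824, at 1.44 ± 0.36 (edgeR adjusted p = 0.985). Of the 52 genes higher later, 31 had an unadjusted p under 0.05 in this test, and 3 of the 27 lower. The later libraries chose these genes and also enter the test, so both counts are descriptions.

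Genes that came nearest to a difference at 12 h were also read in the later libraries, which entered their choice through the shared estimate of the spread behind each p. Without overlap and with an unadjusted p under 0.05 there were 134 genes higher at 12 h (0.684%) and 109 lower (0.556%). Of the 132 higher genes with enough later counts, 85 (64.4%) were higher in the later mean, where 51% of all genes were, and their median was 0.10 in log2 units. Their medians changed sign between the later times, at 0.91, -0.76, -2.52, 2.22 and 0.43 from 24 to 72 h, and 77 of the 134 belonged to the co-varying set or to its correlates. Of the 104 lower genes, 38 (36.5%) were lower later, where 49% of all genes were, and their median was 0.07. An unadjusted p under 0.05 in the direction of 12 h was found for 3 of the 132 higher genes (2.27%), against 2.72% of all genes higher, and for 6 of the 104 lower (5.77%), against 1.72% of all genes lower. From both lists 1 gene each was called in the later mean, Fcan01_15105 in the opposite direction and Fcan01_01222 in the same.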

How the data were processed

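RNA was extracted with TRIzol and made into stranded mRNA libraries with a TruSeq kit, per the labels' protocols. Reads were trimmed with Trim Galore (Cutadapt version given as 0.6.7) and assigned to the transcriptome with Salmon 1.4.0, per the labels' protocols. No source used here names the release of the transcriptome. The authors deposited estimated counts per gene model before normalization, all whole numbers (0 were not). Salmon splits reads between similar copies by estimation, so counts of near-identical genes are uncertain.

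The filter on low values was filterByExpr with a count minimum of 10 and a total of at least 15, passed by 19600 models (68.2%), and scaling was by TMM. A robust quasi-likelihood model in edgeR 4.0.16 (R 4.3.3) was fitted to 36 libraries with a mean per group (12 groups, 24 residual degrees of freedom). P-values were adjusted by Benjamini-Hochberg over all tested genes, threshold 0.05. The later genes came from the same fit of the 30 libraries of 24 to 72 h (20 residual degrees of freedom). The standard error is the log2 fold change divided by the root of the F statistic. CPM use TMM-scaled totals, and log2 CPM a prior count of 2. Co-varying genes were grouped by complete linkage on 1 minus the correlation, height 0.5, and the largest group was used. The fits were tested on simulated data.

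Alternatives used DESeq2 1.42.0 and limma 3.58.1, other scalings and filters, a replicate block, a covariate, and left-out libraries. Between libraries of a group at 12 h, chi-square divided by its degrees of freedom was 124 to 237, so none was a copy of another. Members and lists were chosen with earlier results of these data known. Named genes were those with the smallest p, at least 1 CPM at 12 h and, for 12 h, groups that do not overlap (at most 2 a direction), for the later mean and the difference of 12 h from it the 2 a direction with the smallest p, genes called at 3 later times, the highest 2 of the co-varying set, and the 2 with the largest gap between the highest and second highest library; lists of 5 or fewer are given whole. Lists by product name were not run, since identifiers have no names.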

Additional observations from a re-analysis of the deposited data

Results flagged for a closer look

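Only the 16 named genes were searched for a turn of sign. In 2 of them every exposed library lay above every control at 12 h and below every control at a later time. Both were named for a 12 h effect above the later mean, a choice that favors such a turn. Fcan01_15105 had a log2 fold change of 0.47 at 12 h, -0.78 at 60 h and -1.10 at 72 h. At 72 h it stood at 17.4 to 19.1 CPM in exposed animals and 32.4 to 44.8 CPM in controls, while the exposed libraries of 12 h had stood at 18.1 to 19.1 CPM. Between these times its exposed level was not steady, at 13.3 to 14.6 CPM at 60 h. Fcan01_20824 had a log2 fold change of 1.23 at 12 h and -0.34 at 60 h, where it stood at 11.0 to 14.0 CPM in exposed animals and 14.2 to 17.5 CPM in controls. The difference between 12 h and the later mean did not pass the test for either gene (edgeR adjusted p = 0.491 and 0.985).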

How the results depend on the processing

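Calls at 12 h stayed at 0 under edgeR and limma-voom except in the replicate block on the 6 libraries alone (15, with 1 residual degree of freedom), and DESeq2 gave 13. For 12 h against later, DESeq2 called 20 and limma-voom with library weights 2. In edgeR both counts were 0 with any 1 library of 12 h left out. It gave 2 genes of the co-varying set an adjusted p of 0.0139 (Fcan01_08077) and 3.14e-07 (Fcan01_26023) in that replicate block on the 6 libraries. Numbers 3 and 5 occur in 1 treatment each, so every effect from that block, here and below, rests on replicates 2 and 6. Imidacloprid replicate 5, where the set was low (mean log2 CPM -2.94), does not enter these effects, and the 2 p-values are no support for a difference. With 1 library left out, the number with an unadjusted p under 0.05 at 12 h ran from 283 (without imidacloprid replicate 6) to 1291 (without imidacloprid replicate 5).

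Genes over 2-fold higher (1069) were 2742 with no filter, 228 with a filter of 5 CPM and 621 with the co-varying set as covariate. From the 6 libraries alone they were 368. Without irregular titles, which leaves imidacloprid replicate 2 against control replicates 3 and 6, they were 2142. Without imidacloprid replicates 2 and 6 together, which leaves replicate 5 as the only exposed library of 12 h, they were 631. With 1 library left out they were 1100 to 1459. Genes over 2-fold lower (412) were 733 with library weights, 2037 with no filter, 168 with 5 CPM, 710 with the covariate, 267 from the 6 libraries alone, 688 with their replicate block, 1300 without irregular titles and 1344 without replicates 2 and 6; with 1 library left out, 369 to 997.

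The share of later genes in the later direction (67.1%) was 54.4% with limma-voom, 41.8% with library weights, 43.0% with the covariate, 80.6% with the replicate block on the 6 libraries, 41.8% without replicates 2 and 6, 49.5% for the list of DESeq2, 50% for genes of single times and 36.7% to 75.9% with 1 library left out. The distance ratio (1.00) was 0.968 by Spearman correlation, 0.958 with 5 CPM, 0.984 with a prior count of 5, 0.978 without the co-varying set, 0.936 without it and its correlates, and 0.922 to 1.21 with 1 library left out.

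Log2 fold changes of some named genes changed sign. Fcan01_10767 was -0.057 with library weights, -0.60 without replicates 2 and 6 and -0.20 to 1.09 with 1 library left out. Fcan01_08638 was -0.22 without replicates 2 and 6 and -0.024 to 0.68 with 1 left out. Fcan01_17452 was 0.16 with the replicate block on the 6 libraries, 0.46 without irregular titles and -0.54 to 0.24 with 1 library left out. Fcan01_17957 was 0.090 with the replicate block over all times, 0.011 from the 6 libraries alone, 0.35 with their block, 0.21 without irregular titles and -0.21 to 0.23 with 1 library left out. Fcan01_17166 was -0.50 with that block and -1.02 without irregular titles. From 7.71, Fcan01_24975 was -0.14 with the covariate and -2.02 without replicates 2 and 6, where Fcan01_08077 went from 4.10 to -0.066 and Fcan01_26023 from 6.78 to -0.44. The causes were not tested. Fits that leave 1 sample in a group assume that it varies like the other groups. The fits without replicates 2 and 6 and the distances without correlates or with 1 library left out were chosen after seeing the data. Only 2 replicate numbers are shared at 12 h, and deviations of same-numbered libraries correlated at -0.27 and -0.12. With 2 such pairs it cannot be decided whether the numbers pair the libraries, and the main fit used no pairing. The error was largest for genes of low level: the median standard error was 0.70 under 1 CPM and 0.22 over 100 CPM. What part depth has in this was not tested.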
